A study of Daphnia magna with 335 samples.

Results

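Cetirizine and fexofenadine are the 2 H1 antihistamines among 12 chemicals given to Daphnia magna, a water flea used in toxicity testing and extracted here as whole animals. They were pooled to ask for a transcript change common to both, and not for a difference between them. The pools were chosen by their labels alone: every pool at the 3 highest nominal concentrations, coded D1 (highest) to D3, which gave 9 pools of each chemical and 18 of the 335 libraries of the series. Cetirizine was given at 66.67, 21.1 and 6.677 µM and is set against 6 solvent pools of its own exposure, coded C9C10. Fexofenadine was given at 34.2, 10.83 and 3.42 µM and is set against 6 solvent pools of the exposure coded C11C12. For fexofenadine the concentration line of the deposited table gives 34.2 µM at D1, while the exposure protocol gives 32.2 µM.

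Animals were held singly in wells of filtered lake water for 24 h, and the 5 animals of a treatment on a plate were then pooled, with dead animals left out. Solvent (dimethyl sulfoxide, DMSO) was brought to the same share in all wells, at most 0.34%, so treated and DMSO pools share it. The 6 DMSO pools of an exposure are 3 labelled CON and 3 labelled XtraC, each with replicate letters A, B and C, and the labels do not say how these kinds differ. The exposure protocol names fexofenadine hydrochloride, and the design text names cetirizine hydrochloride. The labels give neither the age nor the clone of the animals. No concentration of cetirizine equals one of fexofenadine, so values of the chemicals are given side by side and no test was made between them.

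H1 antihistamines bind the mammalian histamine H1 receptor, a G protein-coupled receptor, and hold it in its inactive form, which is why they are used against allergy. Cetirizine is the carboxylic acid metabolite of hydroxyzine and is built on a piperazine ring, while fexofenadine is the carboxylic acid metabolite of terfenadine and is built on a piperidine ring. In Drosophila melanogaster, histamine is the transmitter of photoreceptors and acts on histamine-gated chloride channels. The assay, TempO-Seq, joins a pair of detector oligonucleotides on their target transcript and counts the joined product, so each value belongs to a probe. The table holds 2378 probes for 1988 gene identifiers and pairs none with a gene name, so no probe could be assigned to histamine signalling or any other pathway, and the whole-body label could not be checked against marker genes. In whole-animal RNA, fewer cells of a type and less RNA per cell cannot be told apart.

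The 30 libraries compared had a median total of 534907 counts (274941 to 1000124). Between 22.9% and 31.3% of these fell on the top 10 probes. The median correlation of a library's log2 CPM (a probe's count relative to the scaled library total) with the other libraries of its exposure ran from 0.916 to 0.973. The lowest value and the highest total belonged to the same pool, replicate B of cetirizine at D3, and several main results are also given without it.

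No probe passed for the average of the antihistamines. Of 1359 probes tested, 0 had an adjusted p under 0.05 (percent called: 0) in edgeR's quasi-likelihood test of the mean of both log2 fold changes, with Benjamini-Hochberg adjustment and the replicate letter as a block. Such a probe is said to be called. At an unadjusted p under 0.05 there were 54 probes, or 3.97% of those tested, 28 higher and 26 lower than in DMSO, and DESeq2 called 0. Each chemical alone also gave 0 calls, with 78 probes (5.74%) at an unadjusted p under 0.05 for cetirizine and 22 (1.62%) for fexofenadine. When each chemical had to depart in the same direction on its own, 0 probes were called and 0 reached an unadjusted p under 0.05.

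The size of change in this average that the pools could hide was limited for most probes. The averaged log2 fold change had a median SE of 0.0999, and its 95% interval lay within a 2-fold change either way for 1289 probes (94.8%). For 1125 probes (82.8%) the interval lay within 1.5-fold. The estimates themselves ran from -0.21 at the 5th percentile to 0.31 at the 95th, with a median of -0.0025, and 8 probes had an estimate beyond 2-fold. For single chemicals the interval lay within 2-fold for 88.8% of probes with cetirizine and 89.6% with fexofenadine. All these intervals are for means over D1 to D3, and do not bound a change at a single level of a single chemical. Each SE was derived from the estimate and its p, which is unstable for estimates near 0, so these shares are approximate.

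Fold changes of the chemicals were weakly related across probes. Pearson's r was 0.277 and Spearman's rho 0.133 over 1359 probes, and 727 probes (53.5%) had the same sign. The chemicals share no library, but probes within an exposure share its libraries, so these values carry no p. At single levels r was 0.0941 at D1, 0.132 at D2 and 0.3 at D3. Without replicate B of cetirizine at D3, r was 0.276 over all 3 levels (rho 0.154) and 0.135 at D3. Over 60 pairs of chemicals from different exposures, fitted together on 1480 probes, r ran from -0.332 to 0.436 with a median of 0.0525, and cetirizine with fexofenadine stood at 0.234, rank 11.

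**Figure D1:**
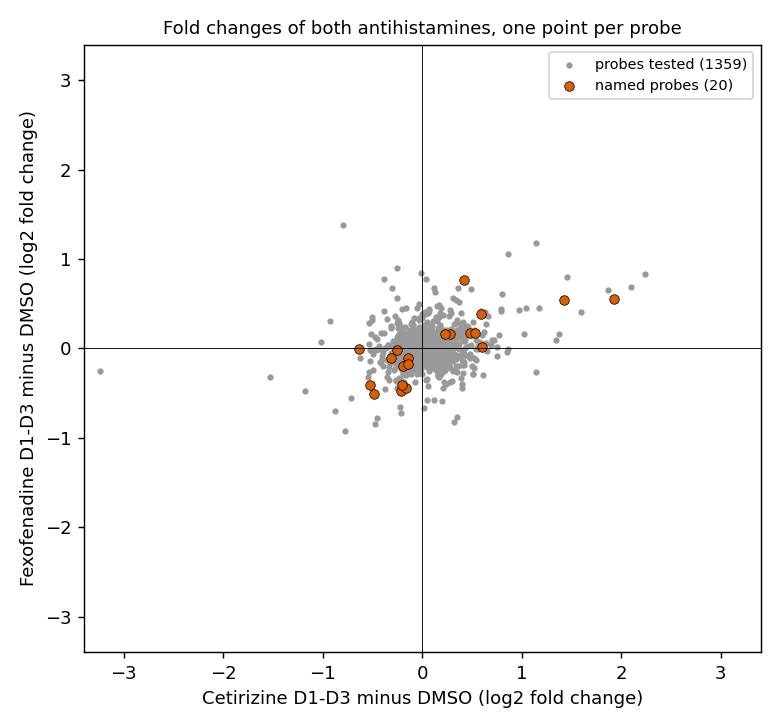
Log2 fold change against DMSO at D1 to D3 for cetirizine (x axis) and fexofenadine (y axis), 1 point per probe for 1359 probes, with the 20 named probes in orange. Most points lie close to 0 on both axes, and r is 0.277.

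Since no probe was called, the 20 probes with the lowest unadjusted p and the same sign in both chemicals are described as values. Of these, 9 were higher and 11 lower than in DMSO on the averaged scale, all with an adjusted p of 0.907. Dapma7bEVm000188_96338 had the lowest p, 0.000685. It held 307 to 461 CPM in cetirizine pools (median 388.4), against 448 to 541 (median 476) in their DMSO pools. In fexofenadine pools it held 892 to 1467 CPM (median 1258), against 1140 to 1641 (median 1278) in theirs. With cetirizine 8 of 9 pools lay below the lowest DMSO pool, and with fexofenadine 3 of 9, so the groups overlapped in both. Its averaged log2 fold change was -0.21 ± 0.055 (SE; 95% interval -0.32 to -0.099), from -0.31 with cetirizine and -0.11 with fexofenadine.

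Dapma7bEVm010423_97763 was among the named probes with the larger estimates. It held 2.98 to 59.6 CPM in cetirizine pools (median 33.0), against 4.52 to 26.1 (median 8.41) in their DMSO pools. In fexofenadine pools it held 25.6 to 78.7 CPM (median 39.3), against 10.6 to 69.4 (median 26) in theirs. The spread within each group was wide: with cetirizine 5 of 9 pools lay above the highest DMSO pool and 1 below the lowest, and with fexofenadine 1 of 9 lay above. The averaged log2 fold change was 0.99 ± 0.28 (SE; 95% interval 0.41 to 1.57), 1.43 with cetirizine and 0.54 with fexofenadine. Dapma7bEVm011575_97289, at 1.24 ± 0.46 (95% interval 0.29 to 2.19), was as variable, with 0 to 165 CPM over cetirizine pools.

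Dapma7bEVm007384_97595 held 70 to 107 CPM in cetirizine pools (median 92.9), against 29.8 to 84.3 (median 62) in their DMSO pools. In fexofenadine pools it held 79.4 to 122 CPM (median 97.3), against 73.3 to 106 (median 79.7). The averaged log2 fold change was 0.35 ± 0.11 (SE), and 5 of 9 cetirizine pools but 1 of 9 fexofenadine pools lay above every DMSO pool. The lowest DMSO value, 29.8 CPM in CON B, stood apart from the other 5 of its group.

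Dapma7bEVm008030_96681 had its larger estimate with fexofenadine. It held 14 to 40.6 CPM in fexofenadine pools (median 23.4), against 7.71 to 21.9 (median 13.4) in their DMSO pools. In cetirizine pools it held 18.2 to 45.8 CPM (median 34.1), against 12.8 to 37.1 (median 23.6) in theirs. With fexofenadine 5 of 9 pools lay above every DMSO pool and with cetirizine 3 of 9. Averaged over both, the log2 fold change was 0.59 ± 0.19 (SE), 0.41 with cetirizine and 0.76 with fexofenadine.

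Dapma7bEVm005078_96317 was lower on the same pattern. It held 24.3 to 42.6 CPM in fexofenadine pools (median 30.2), against 38.8 to 57.8 (median 42.3) in their DMSO pools, and 7 of 9 lay below the lowest of these. In cetirizine pools it held 36.5 to 52.4 CPM (median 38.8), against 40.4 to 53.2 (median 48.5) in theirs. There 5 of 9 pools lay below the lowest DMSO pool. This gave -0.30 ± 0.10 (SE) as the averaged log2 fold change, -0.16 with cetirizine and -0.44 with fexofenadine.

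Dapma7bEVm003504_97011 came nearest to a departure in each chemical taken alone. It held 136 to 330.5 CPM in cetirizine pools (median 264), against 248 to 317 (median 299) in their DMSO pools. In fexofenadine pools it held 165 to 242 CPM (median 213), against 209.8 to 299 (median 235) in theirs. The log2 fold changes were almost equal, -0.20 with cetirizine (unadjusted p = 0.0492) and -0.20 with fexofenadine (unadjusted p = 0.0517, edgeR). The lowest cetirizine pool, at 136 CPM, was replicate B at D3, and without it the log2 fold change with cetirizine was -0.11 (unadjusted p = 0.154, edgeR). In that refit the value with fexofenadine was -0.195 (unadjusted p = 0.0166, edgeR).

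In other named probes the averaged estimate against DMSO came mostly from cetirizine. Dapma7bEVm004411_96998 held 62.5 to 100.4 CPM in cetirizine pools (median 84.2), against 44.3 to 61.8 (median 54.2) in their DMSO pools, so all 9 pools lay above all 6. It was the only probe of 1359 (0.0736%) whose 9 cetirizine pools stood apart from the DMSO pools, and with fexofenadine there were 0. In fexofenadine pools it held 68.2 to 112 CPM (median 94.1), against 63.5 to 117 (median 89.7) in theirs, and these groups overlapped fully. The log2 fold change was 0.60 ± 0.15 (SE) with cetirizine (adjusted p = 0.227, edgeR) and 0.017 ± 0.14 with fexofenadine. Dapma7bEVm003688_97501 likewise stood at -0.64 ± 0.16 with cetirizine and at -0.0034 ± 0.16 with fexofenadine, and 7 of 9 cetirizine pools lay below their DMSO pools. Neither cetirizine value was called, and the difference between the chemicals was not tested, since their concentrations differ. Set against the 3 lowest concentrations instead of DMSO, Dapma7bEVm004411_96998 stood at 0.35 with cetirizine and 0.22 with fexofenadine. Dapma7bEVm003688_97501 stood there at -0.53 with cetirizine and -0.27 with fexofenadine.

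The remaining named probes had averaged log2 fold changes of -0.50 (Dapma7bEVm015061_96772) to 0.49 (Dapma7bEVm002187_96984). Dapma7bEVm002187_96984 held 9.5 to 26.4 CPM in fexofenadine pools, against 7.04 to 15.5 in DMSO, with 7 of 9 pools above all DMSO pools, and 7.82 to 42.3 in cetirizine pools, against 3.37 to 18.1 in DMSO. Dapma7bEVm002000_97314 was lower by similar amounts in both, at -0.15 ± 0.080 with cetirizine and -0.17 ± 0.081 with fexofenadine (SE), with 5 and 6 of 9 pools below the lowest DMSO pool. Of the 20 probes, 5 had a second probe for the same gene identifier among those tested. The second probes of Dapma7bEVm002000_97314, Dapma7bEVm015061_96772 and Dapma7bEVm004847_95964 had averaged log2 fold changes of 0.0142, 0.066 and 0.247, opposite in sign to the named ones. Those of Dapma7bEVm018600_96105 and Dapma7bEVm000171_96265 had the same sign and were nearer 0, at -0.0713 and 0.0953.

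**Figure D2:**
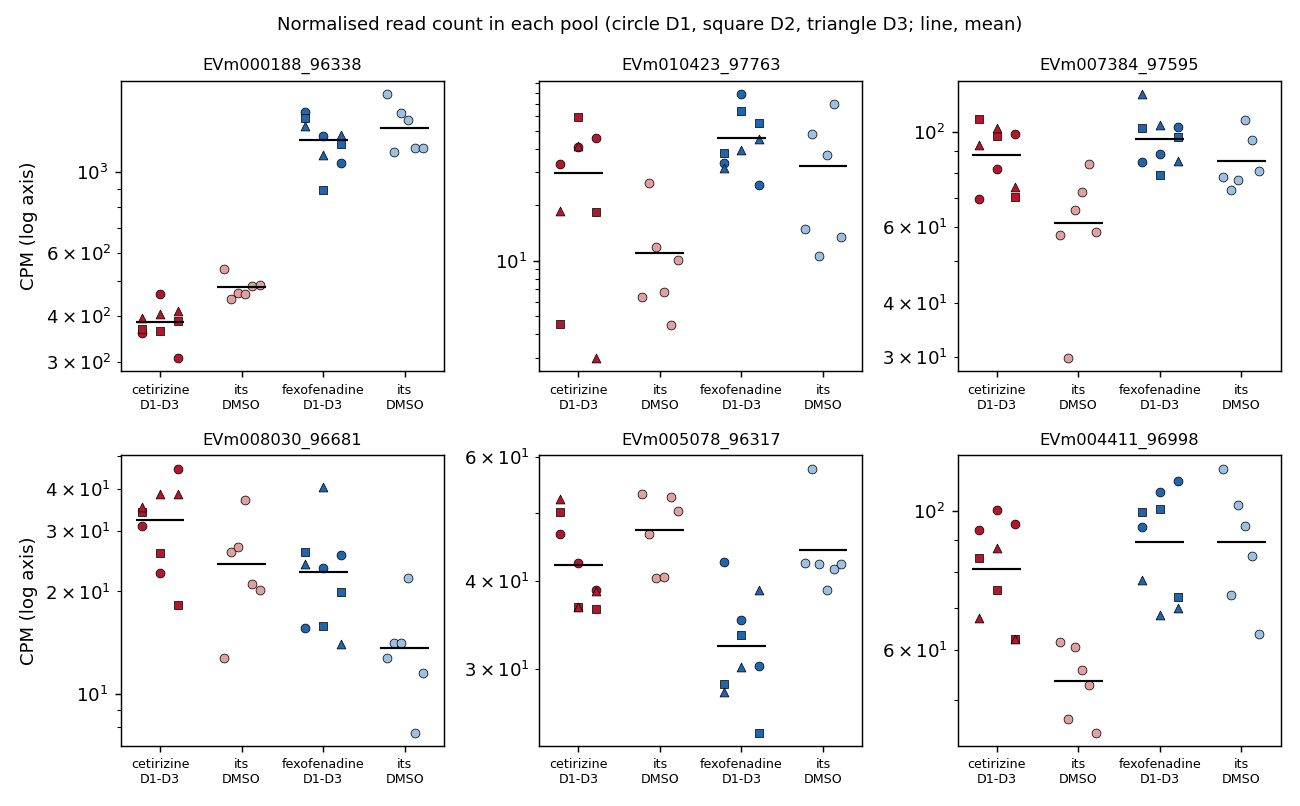
CPM on a log axis in every pool of 4 groups, treated pools left of their own DMSO pools, for the 6 named probes with the lowest p. Dark circles, squares and triangles are D1, D2 and D3, pale circles are DMSO pools, lines are group means, and only for Dapma7bEVm004411_96998 with cetirizine do the 9 treated pools clear the 6 DMSO pools.

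Taken level by level, D1 and D2 gave no call and D3 gave 16. At D1, 0 of 1359 probes were called (percent called: 0), with 63 (4.64%) at an unadjusted p under 0.05, and DESeq2 called 1. At D2, 0 were called (percent called: 0), with 65 (4.78%) at an unadjusted p under 0.05, and DESeq2 called 0. Cetirizine alone had 0 calls at D1 and at D2, with 63 (4.64%) and 39 (2.87%) probes at an unadjusted p under 0.05 in edgeR, and fexofenadine alone 0, with 70 (5.15%) and 71 (5.22%). At D3, 16 probes were called (1.18%), 13 higher and 3 lower, with 325 (23.9%) at an unadjusted p under 0.05, while DESeq2 called 83, 42 higher and 41 lower. The single chemicals at D3 gave 113 calls (8.31%) with cetirizine, where 366 (26.9%) had an unadjusted p under 0.05, and 0 with fexofenadine, where 63 (4.64%) did. Without the B pool cetirizine at D3 also gave 0 calls, with 100 probes (7.41%) at an unadjusted p under 0.05 in edgeR. In the same refit cetirizine at D1 gave 1 call, with 75 probes (5.56%) at an unadjusted p under 0.05.

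At the highest concentration, 2 probes stood close to the threshold, and both are named here after their values were seen. Dapma7bEVm028877_97446 held 20780, 20950 and 20840 CPM in the cetirizine pools at D1, against 16340 to 23100 in DMSO. In the fexofenadine pools at D1 it held 18050, 21930 and 17850 CPM, against 13000 to 17330 in DMSO. How many of all probes have 3 pools of a level clear of their DMSO pools was not counted. At D1 the averaged log2 fold change was 0.27 ± 0.055 (SE; adjusted p = 0.0733, edgeR). With fexofenadine it averaged 16380 CPM at D2 and 14090 at D3, against 15110 in DMSO, and with cetirizine 17000 at D2 and 17210 at D3, against 18600. The D2 mean with fexofenadine was thus above DMSO and the other 3 means below, each within the range of the DMSO pools. At D8, the lowest concentration, it averaged 23050 CPM with cetirizine and 18190 with fexofenadine.

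Dapma7bEVm004411_96998, described above, was the other. At D1 it held 93.3, 100.4 and 95.2 CPM with cetirizine and 94.1, 107 and 112 with fexofenadine. The averaged log2 fold change was 0.55 ± 0.12 (SE; adjusted p = 0.0733, edgeR), from 0.86 with cetirizine and 0.24 with fexofenadine. At D2 and D3 the log2 fold change was 0.45 and 0.46 with cetirizine and 0.053 and -0.26 with fexofenadine. Without replicate B of cetirizine at D3 both probes were called at D1, with adjusted p of 0.0224 and 0.0278 in edgeR, and without replicate A, B or C of all groups neither was.

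The calls at D3 depended on single libraries and on the fit. Without the replicate block 1 probe was called, Dapma7bEVm000171_96265, and the other 15 had adjusted p of 0.0625 to 0.163 in edgeR. Without replicate A of all groups 5 of 1372 were called, without B 0 and without C 1, with 323, 114 and 275 at an unadjusted p under 0.05. Of the 16, only Dapma7bEVm003115_96687 and Dapma7bEVm006620_96939 were among those 5. The call without C was Dapma7bEVm000171_96265. With CON pools alone, and with XtraC pools alone, 0 were called (295 and 151 at an unadjusted p under 0.05). Without replicate B of cetirizine at D3, 0 of 1350 probes were called in edgeR (139 at an unadjusted p under 0.05), whereas without replicate A of that group 91 were and without C 171. In all 16 called probes that B pool was the most extreme of the cetirizine pools at D3. Its median departure from DMSO in the called direction was 0.94 on the log2 scale, against 0.255 in A and 0.254 in C of cetirizine. In fexofenadine pools A, B and C it was 0.147, 0.257 and 0.143. With fexofenadine 13, 16 and 15 of the 16 probes lay on the called side in A, B and C, a direction to which their choice contributes.

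Dapma7bEVm010436_98015 shows this pattern. At D3 it held 108, 279.5 and 86.3 CPM in cetirizine pools A, B and C, against 52.2 to 75.3 in DMSO. In fexofenadine pools it held 37, 43.2 and 37.3 CPM, against 24.6 to 50.8. On the log2 scale the averaged departure was 0.71 ± 0.16 (SE; adjusted p = 0.035, edgeR), and 0.44 without the B pool. Dapma7bEVm009911_97045 held 1499 CPM in the B pool, against 471 and 476 in A and C and 292 to 471 in DMSO, while in fexofenadine pools at D3 it held 479 to 522 CPM, against 367 to 567. Dapma7bEVm006620_96939 was lower: it held 120, 47.8 and 83.4 CPM in cetirizine pools A, B and C, against 91.9 to 201 in DMSO, and 57.4, 70.8 and 98 in fexofenadine pools, against 96.2 to 130. Fexofenadine pools A and B lay below all 6 DMSO pools of their exposure, as did cetirizine pools B and C.

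**Figure D3:**
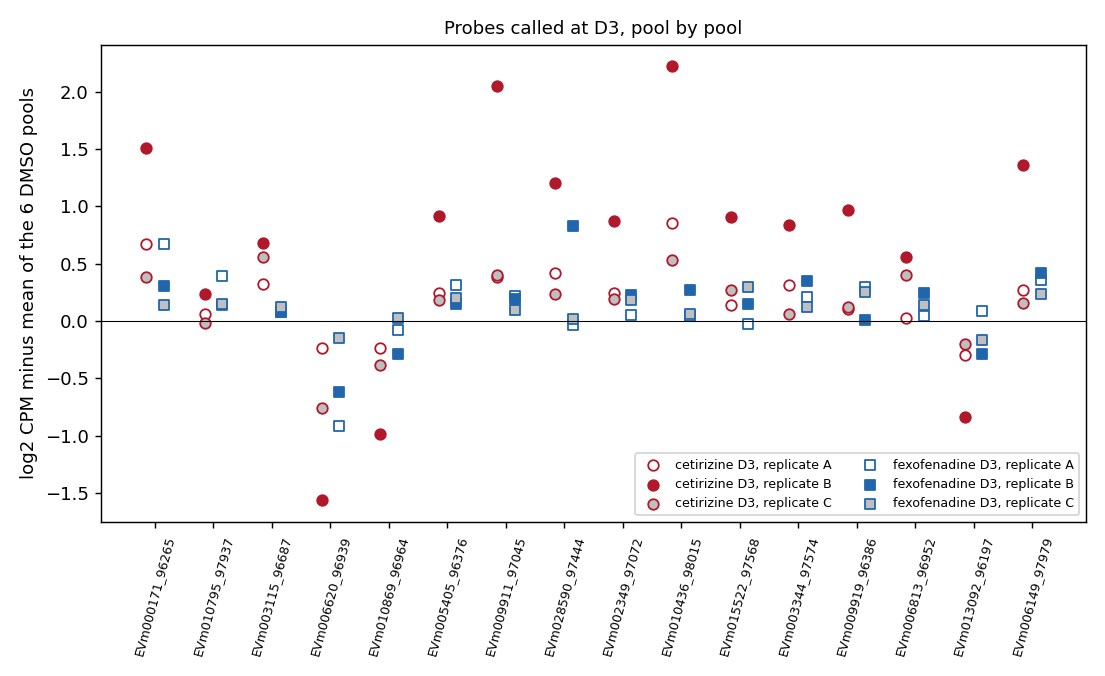
Log2 CPM minus the mean of the exposure's 6 DMSO pools (y axis) for the 16 probes called at D3, 1 point per pool, with cetirizine as circles and fexofenadine as squares. The filled red circles, replicate B of cetirizine at D3, are the farthest from 0 of the cetirizine pools in all 16.

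A comparison that uses no DMSO pool set D1 to D3 against the 3 lowest concentrations, D6 to D8, in 48 treated pools. Of 1296 probes, 24 were called (1.85%), 9 higher and 15 lower at the high concentrations, with 230 (17.7%) at an unadjusted p under 0.05. The changes were small, with absolute log2 fold changes of 0.114 to 0.706 and a median of 0.191. Cetirizine alone gave 26 calls (2.01%), with 217 (16.7%) at an unadjusted p under 0.05, and 3 calls without its D3 B pool, where the average gave 31. Fexofenadine alone gave 0 calls, with 117 probes (9.03%) at an unadjusted p under 0.05. Between the chemicals, r in this contrast was 0.282 (rho 0.246), and 0.0638 (rho 0.196) without the D3 B pool of cetirizine. In the 24, 23 had an unadjusted p under 0.05 with cetirizine and 15 with fexofenadine. All 24 had the same sign in both, against 57.9% of all 1296 probes. Since the 24 were called on the average of both, that agreement is partly set by the choice.

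Dapma7bEVm001922_96784 had the lowest p of the 24. With cetirizine it held 994 to 1778 CPM at D1 to D3 (median 1163), against 736 to 1207 (median 957.5) at D6 to D8. With fexofenadine it held 948 to 1211 CPM (median 1147), against 865 to 1168 (median 1029). The groups overlapped in both chemicals, and the log2 fold change was 0.26 ± 0.046 (SE; adjusted p = 0.00315, edgeR). The DMSO pools, at 901 to 1259 CPM and 929 to 1194 CPM, lay across both ranges, and against them the averaged log2 fold change at D1 to D3 was 0.13 ± 0.058 (SE).

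Dapma7bEVm005540_96119 held 259 to 563 CPM at D1 to D3 with cetirizine (median 369), against 157 to 405 (median 264) at D6 to D8. With fexofenadine it held 391 to 551 CPM (median 491), against 353 to 562 (median 392), and the estimate was 0.32 ± 0.061 on the log2 scale (SE; adjusted p = 0.00422, edgeR). Dapma7bEVm003344_96738 stood at 0.19 ± 0.035, with 1965 to 2396 CPM with cetirizine, against 1698 to 2094, and 1488 to 1940 with fexofenadine, against 1369 to 1784. Lower at D1 to D3 were Dapma7bEVm018376_96744, at -0.20 ± 0.039, and Dapma7bEVm007428_96641, at -0.19 ± 0.038. Dapma7bEVm018600_96105 had the largest estimate of the 24, -0.71 ± 0.15 (SE). It held 28.5 to 110 CPM with cetirizine, against 61.6 to 200 at D6 to D8, and 38 to 97.4 with fexofenadine, against 62.6 to 197.

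Those 24 calls depended on several parts of the data. Without replicate A of all groups 0 probes were called and without B 0, with 221 and 120 at an unadjusted p under 0.05 in edgeR, without C 23, and without the replicate block 12. Without D8 in the contrast 0 of 1291 probes were called in edgeR, with 107 at an unadjusted p under 0.05. The departure of D1 to D3 was larger against D8 than against D6 and D7 for 23 of 24 probes with cetirizine, with medians of 0.428 and 0.168 on the log2 scale. With fexofenadine it was larger for 22 of 24, with medians of 0.267 and 0.0928. The 24 were called with D8 in the contrast, so these counts are partly set by their choice. The share over all probes tested was not taken. Dapma7bEVm018600_96105 averaged 162 ± 33.2 CPM at D8, 103 ± 8.46 at D7 and 81.9 ± 20.8 at D6 with cetirizine (SD, n = 3 each), and 78.5 ± 9.41 at D1. With fexofenadine it averaged 144 ± 69.5 CPM at D8, 113 ± 12.6 at D7 and 89 ± 30.8 at D6, and 75 ± 15.2 at D1. Among the 24 probes, 7 had other probes of the same gene identifier tested in this contrast. None of these second probes was called. That of Dapma7bEVm018600_96105 stood at -0.185 (unadjusted p = 0.0452) and those of Dapma7bEVm001922_96784 and Dapma7bEVm003344_96738 at -0.0128 and -0.0146.

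**Figure D4:**
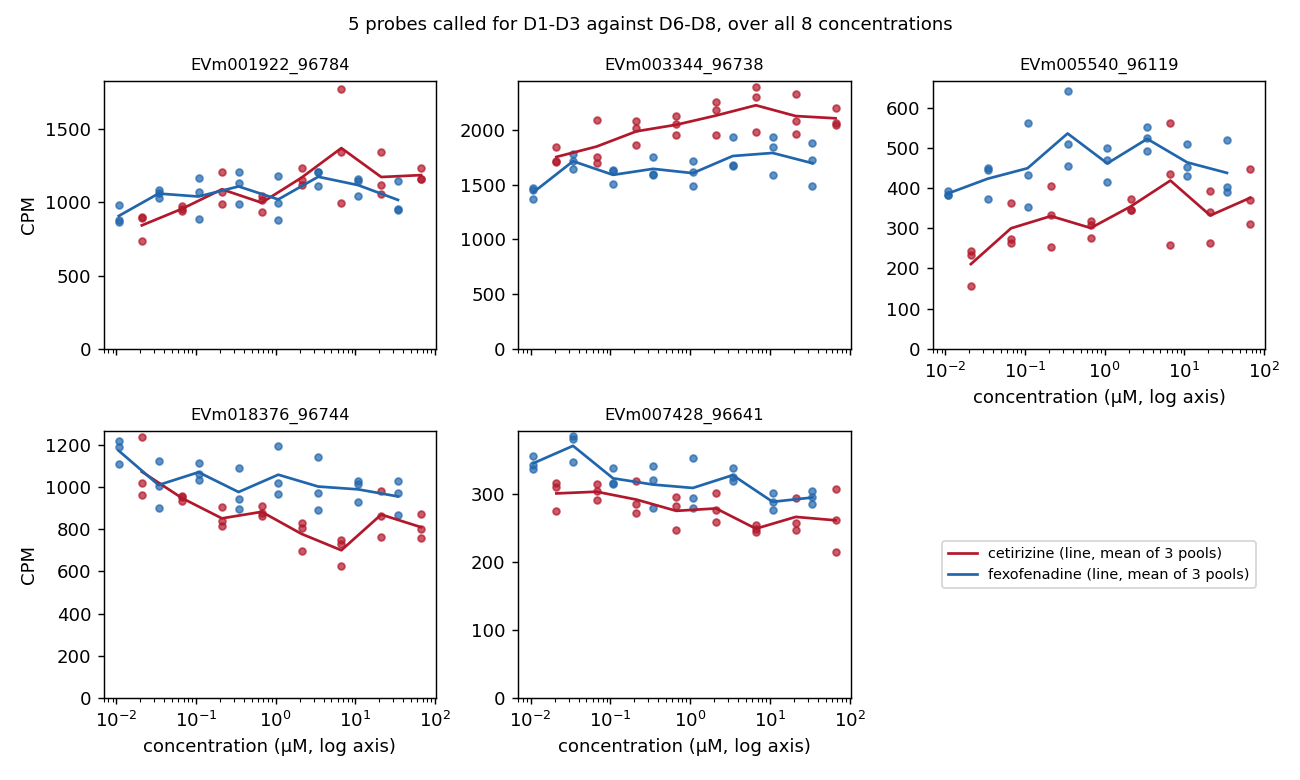
CPM (y axis, from 0) over all 8 concentrations in µM (log axis) for the 5 probes with the lowest p for D1 to D3 against D6 to D8, with cetirizine in red, fexofenadine in blue and lines through means of 3 pools. With cetirizine the mean of Dapma7bEVm005540_96119 was lowest at 0.021 µM, at 211 CPM, and panel titles drop the start of the identifier.

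The same contrast of D1 to D3 against D6 to D8 was taken in the other 10 chemicals for the 24 probes. The sign of the antihistamines was shared by 23 of 24 with 1(2H)-phthalazinone, 22 with hydrochlorothiazide, 21 with Metolachlor OA and 20 with fipronil amide, down to 12 with 2-tert-butyl-4-methoxyphenol. The share of equal signs over all probes tested was not taken, so these counts cannot be read as a trait of the 24. In a fit of all 12 chemicals, chosen after the data were seen, 550 of 1441 probes (38.2%) were called for the mean of the other 10 (45.1% at an unadjusted p under 0.05), and 14 of the 24 were among them. In that fit the antihistamine mean itself gave 0 calls, with 134 probes at an unadjusted p under 0.05 in edgeR, of which 23 were among the 24. The antihistamines minus that mean gave 21 calls (1.46%), 6 higher and 15 lower, of which 3 were among the 24: Dapma7bEVm003688_97501, Dapma7bEVm028582_97954 and Dapma7bEVm000188_96338. Their differences were -0.43 ± 0.12, -0.60 ± 0.17 and -0.42 ± 0.11 (SE). The antihistamine means behind them were -0.40, -0.35 and -0.24, against 0.031, 0.24 and 0.18 for the other 10. For Dapma7bEVm028582_97954 and Dapma7bEVm000188_96338 the mean of the others was itself called as higher (adjusted p = 0.00167 and 0.000741, edgeR), and no antihistamine mean was called. Without replicate A 1 probe was called, and without B or without C 0, with 98 and 137 at an unadjusted p under 0.05 in edgeR.

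Against DMSO at D1 to D3, the average of the antihistamines differed from the mean of the other 10 chemicals for 2 of 1480 probes (0.135%), both higher with the antihistamines, while 105 (7.09%) had an unadjusted p under 0.05. Dapma7bEVm005137_96506 held 198 to 354 CPM in cetirizine pools (median 271), against 202 to 362 (median 307) in DMSO. It held 249 to 439 CPM in fexofenadine pools (median 322), against 227 to 334 (median 314). The groups overlapped in both, while its log2 fold change was -3.56 with 3,4-dichlorophenyl isocyanate, -1.65 with 2-tert-butyl-4-methoxyphenol, -1.18 with cis-nonachlordane and -0.91 with fipronil amide. The difference was 0.97 ± 0.21 (SE; adjusted p = 0.0212, edgeR).

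Dapma7bEVm011534_97824 held 17.5 to 76 CPM in cetirizine pools (median 57.3), against 44.7 to 64.8 (median 56.1) in DMSO. It held 126 to 237.5 CPM in fexofenadine pools (median 164), against 120 to 235 (median 163). Its log2 fold change was -0.17 with cetirizine and -1.62 with fipronil amide against the same 6 DMSO pools, and -0.068 with fexofenadine and -4.78 with cis-nonachlordane against the same 6 of the other exposure. The difference was 1.16 ± 0.28 (SE; adjusted p = 0.0466, edgeR). For both probes the 95% intervals of 5 other chemicals also include 0, so this result is not particular to the antihistamines, and both calls were lost without replicate A, without B and without C.

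**Figure D5:**
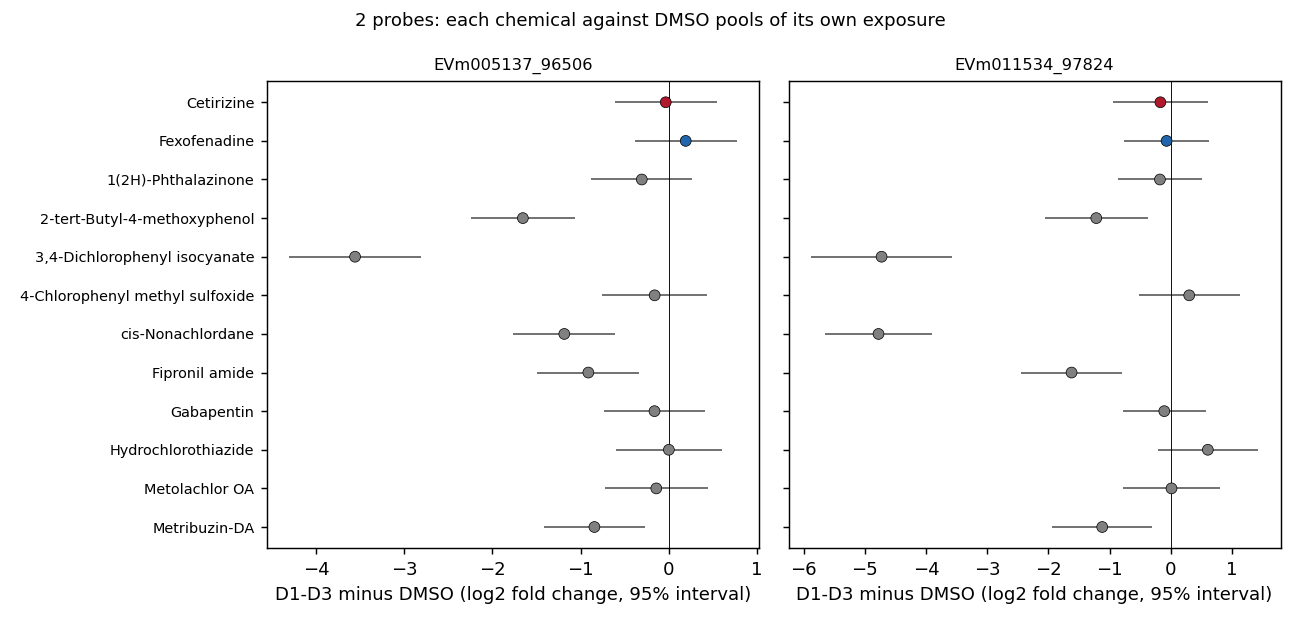
Log2 fold change at D1 to D3 against DMSO of the same exposure (x axis, bars are 95% intervals) for each of 12 chemicals, antihistamines at the top, in the 2 probes called for the antihistamines minus the other chemicals. Both antihistamines lie near 0, and 3,4-dichlorophenyl isocyanate and cis-nonachlordane lie farthest below in the right panel.

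Other probes that respond strongly to chemicals of this series, chosen with those responses known, were not called with the antihistamines. Averaged log2 fold changes were -0.14 (95% interval -0.53 to 0.25) for Dapma7bEVm002921_97205, -0.10 (-0.35 to 0.14) for Dapma7bEVm005157_96399 and 0.17 (-0.13 to 0.48) for Dapma7bEVm010966_96832. For Dapma7bEVm010649_96442 it was -0.25 (-0.82 to 0.32) and for Dapma7bEVm008403_97506 0.20 (-0.23 to 0.63). The interval was widest for Dapma7bEVm001285_98069, at 0.41 (-0.21 to 1.02), so a 2-fold higher level of this probe is not outside it. It held 11.4 to 106 CPM in cetirizine pools, against 11.2 to 56.4 in DMSO, with 4 of 9 above all DMSO pools and a log2 fold change of 0.72 ± 0.36 (SE). With cetirizine at D1, D2 and D3 its log2 fold change was 1.17, 0.31 and 0.59. Other averages also cover unlike levels. For Dapma7bEVm010649_96442 with fexofenadine the log2 fold change was 0.39 at D1, -1.26 at D2 (adjusted p = 0.784, edgeR) and -0.49 at D3. For Dapma7bEVm002921_97205 with fexofenadine it was -1.06 ± 0.25 at D1 (SE; unadjusted p = 0.00037, adjusted p = 0.252, edgeR), -0.61 at D2 and 0.46 at D3. Its fexofenadine pools held 62.8 to 199.8 CPM, against 86.4 to 214 in DMSO, and 5 of 9 lay below all DMSO pools. Of 36 tested probes raised by both 2-tert-butyl-4-methoxyphenol and 3,4-dichlorophenyl isocyanate, 0 were called for the antihistamine average, 2 (5.56%) had an unadjusted p under 0.05, and the median log2 fold change was -0.0428. Of 22 lowered by both, 0 were called, 0 had an unadjusted p under 0.05, and the median was 0.031. Over all 1359 probes these shares were 0 and 3.97%, with a median of -0.0025.

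At lower concentrations there was also no call. At D4 and D5, which span 2.113 to 0.343 µM over both chemicals, 0 of 1359 probes were called for the average against DMSO, with 87 (6.4%) at an unadjusted p under 0.05 in edgeR. At D6 to D8, 0 of 1360 were called, with 70 (5.15%) at an unadjusted p under 0.05. Between the chemicals, r across probes was 0.245 at D4 to D5 (rho 0.186) and -0.337 at D6 to D8 (rho -0.00432). The sign was the same for 57.5% of probes at D4 to D5 and 52.5% at D6 to D8.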

How the data were processed

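TempO-Seq counts were measured in whole Daphnia magna. The deposited table holds whole-number counts per probe, not normalized, and the deposited tables of each chemical hold log2(count + 1) of the same counts, within 1e-08, as tested on the files. Bcl2fastq is named per the submitters' processing notes; for the aligner, counting tool and transcript reference no source used here gives a name. No probe identifier matched the RefSeq gene table, so no gene is named. Columns were assigned by the library names in the labels, and 0 columns were left unmatched. The 12 control QA libraries were not used.

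Counts of 18 treated and 12 DMSO libraries were filtered with filterByExpr, scaled by TMM and tested in edgeR 4.0.16 (R 4.3.3, quasi-likelihood F-test, two-sided), with a term for each exposure and replicate letter, and adjusted by Benjamini-Hochberg over all probes tested, at a threshold of 0.05. The average contrast is the mean of the log2 fold changes of the chemicals, each against DMSO of its own exposure. "Both" uses the larger of the 2 p-values where the signs are equal. Printed CPM were scaled over the 60 libraries of both chemicals and their DMSO pools. SE and 95% intervals come from the log2 fold change and the test's p and degrees of freedom, and are unstable for estimates near 0. At D1, for example, the averaged estimate of Dapma7bEVm028590_97444 was 0.037 with an SE of 3.59. The scripts were tested on simulated data. DESeq2 1.42.0, RLE scaling, no filter, no replicate block, left-out replicates and shallow libraries, and CON or XtraC pools alone were the alternatives.

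The members and lists were chosen with earlier results of these data known. Named probes are those called for the average or, with none called, the 20 with the lowest p and the same sign in both chemicals. Up to 5 probes called for each chemical alone and up to 5 called for D1 to D3 against D6 to D8 are added by lowest p. Examples called at D3 or against the other chemicals, Dapma7bEVm028582_97954 and Dapma7bEVm028877_97446 fall outside this rule and were chosen after their values were seen. That each letter marks 1 plate is inferred from the 3 plates of the protocol. Deviations of same-letter libraries from their group means had mean correlations of 0.025, 0.097 and -0.071 (A, B, C) in C9C10 and 0.063, 0.269 and 0.024 in C11C12, against -0.007 and -0.058 between letters. Each library is a separate pool of animals of 1 exposure. With a term for each letter, p-values measure the spread left between pools of that exposure after letter means are taken out. In the average contrast this spread includes differences between D1, D2 and D3 and between CON and XtraC pools. Totals were 274941 to 1000124 counts, and without molecular identifiers the counts are not independent molecules.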

Additional observations from a re-analysis of the deposited data

Results flagged for a closer look

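In groups of 4 to 10 pools, the highest or lowest pool stood farther from its nearest neighbour than Dixon's 95% criterion allows in 12 of 104 groups tested, where chance gives about 1 in 20. The pool labelled cetirizine D3 B accounted for 3 of the 12. It held 136.1 CPM of Dapma7bEVm003504_97011, the lowest cetirizine pool, and 214.2 CPM of Dapma7bEVm000171_96265, the highest. It also had the lowest median correlation with its own exposure, 0.916.

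Other treated pools that stood apart were fexofenadine D3 A, with 164.7 CPM of Dapma7bEVm003504_97011, and cetirizine D2 C, with 117.3 CPM of Dapma7bEVm015061_96772. Fexofenadine D1 A had a median correlation of 0.94 with its exposure. Among DMSO pools of C11C12, CON C held 855.2 CPM of Dapma7bEVm015061_96772 and had a median correlation of 0.943, CON B held 57.83 CPM of Dapma7bEVm005078_96317, and XtraC B held 1139 CPM of Dapma7bEVm018376_96744. Among DMSO pools of C9C10, CON B held 29.84 CPM of Dapma7bEVm007384_97595 and CON A held 38.34 CPM of Dapma7bEVm003816_97472.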

How the results depend on the processing

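The counts for the average, for cetirizine, for fexofenadine and for both stayed at 0 calls in every alternative run. For the average, the 20 named probes kept their side of the threshold in 297 of 297 values, with a lowest adjusted p of 0.412. Without the replicate block, D3 gave 1 call, D1 to D3 against D6 to D8 gave 12, and the difference from the other chemicals 0. DESeq2 gave 1 call at D1, 83 at D3, 41 for D1 to D3 against D6 to D8 and 5 against the other chemicals. RLE scaling gave 2 at D1 and 1 against the other chemicals, and no filter gave 1 there. Without libraries under 50% of the median total there was 1 at D1. With CON pools alone, and with XtraC pools alone, D3 and the difference from the other chemicals gave 0. With libraries left out in turn, D1 gave 0 to 2 calls, D3 0 to 171, D1 to D3 against D6 to D8 0 to 31, the difference from the other chemicals 0 to 2, and its counterpart for D1 to D3 against D6 to D8 0 to 1. For D1 to D3 against D6 to D8, 0 were left without A, without B and without level D8. Left-out cetirizine D3 pools and level D8 were added after the data were seen. No value of a named probe changed sign. With 3 pools per level, and 9 per chemical, the intervals given leave room for changes that were not called.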
